A study of Mus musculus with 10 samples.

Results

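The mouse lincRNA probes are 714 of the 60823 noncontrol probes on a single-colour Agilent array that was hybridised with RNA from extracellular vesicles of mouse brain. They were chosen by name alone, without any filter on signal. Of them, 639 carry a name that starts with mouselincRNA and 75 a name that starts with MM9LINCRNAEXON, and each is printed at a single spot. A name holds a locus number and a strand sign, so mouselincRNA0331+_P1V4 and mouselincRNA0331-_P1V4 are probes with the same locus number and opposite strand signs. The 714 probes fall on 397 locus numbers, 317 of which have a probe on each strand and 80 a probe on 1 strand. The rule did not use any measured value.

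Vesicles were isolated by differential ultracentrifugation from whole brains of C57BL/6J mice, which are an inbred strain. All of the mice were adult females. In the ethanol group (5 arrays) the mice had been kept on a schedule of 8 h of ethanol vapor per day on 5 days of each of 4 weeks, and in the control group (5 arrays) room air took the place of the vapor on that schedule. Brains were taken straight after the last exposure day in both groups, and about 3 µg of vesicle RNA per sample was amplified and labelled with Cy3. Whole brain was the source, so the vesicles come from no single cell type. Whether every sample came from its own animal is not stated, and p-values therefore refer to the variation among these 10 samples, part of which can be technical.

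Long intergenic noncoding RNAs (lincRNAs) are transcripts of regions between protein-coding genes that are processed much like messenger RNA but carry no long reading frame. Some act in the nucleus on chromatin and on neighbouring genes, others act in the cytoplasm on RNA stability or translation, and many are restricted to a tissue or cell type, the brain among them. Extracellular vesicles are membrane-bound particles released by cells, and they carry a part of the RNA of the cell that released them.

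Arrays were compared within 2 scan sets, each made of the arrays that share a scan image identifier in the file headers. Scan set 1 holds 3 room air arrays (replicates 1, 2 and 3) and 1 ethanol array (replicate 4). Scan set 2 holds 2 room air arrays (replicates 5 and 9) and 4 ethanol arrays (replicates 6, 7, 8 and 10). Of 51 marker genes of brain cells, blood, vesicles and known long noncoding RNAs, 3 had a probe with a gene accession, and all 3 were well above background on 10 of 10 arrays: Mbp, which encodes a myelin protein, Apoe, a lipid carrier made by astrocytes, and Chgb, a neuronal secretory granule protein. The vesicle markers and the 19 known long noncoding RNAs were among the genes without one.

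Between 46.9% and 80.5% of the mouse lincRNA probes were well above background on an array, and this share followed the scan set more than the exposure. Well above background is the flag that the scanner software sets for a spot whose signal exceeds its local background by a wide margin. In scan set 1 the share was 51.1%, 51.8% and 63.4% on room air replicates 1, 2 and 3, and 46.9% on ethanol replicate 4. On scan set 2 it was 80.5% and 70.9% on room air replicates 5 and 9, and 76.2%, 74.5%, 69.7% and 60.4% on ethanol replicates 6, 7, 8 and 10. Over all noncontrol probes the share was also higher in scan set 2, without overlap. It was 61.9% to 74.5% in scan set 1 and 75.9% to 87.9% in scan set 2. The 2 sets of lincRNA shares overlapped at a single point, where ethanol replicate 10 lay below room air replicate 3. Scan set 2 was higher by 18.7 percentage points on average, with an exact permutation p of 0.00952 over 210 splits of the arrays (two-sided). This test of the sets took no account of the exposure group, which is unevenly spread over them.

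The flag was also set for probes whose name marks them as negatives. Of the 15 noncontrol probes named MM9NEGATIVE, each printed at 3 spots, between 13.3% and 33.3% were well above background in scan set 1 and between 53.3% and 80.0% in scan set 2. The lincRNA share exceeded the share of these negatives by 17.8 to 36.8 percentage points on the 4 arrays of scan set 1. The gap in scan set 2 was 0.532 and -2.47 points on room air replicates 5 and 9, and -3.81, 7.84, -3.59 and 7.03 points on ethanol replicates 6, 7, 8 and 10. With only 15 negatives their share is coarse, and in scan set 2 it lay above the lincRNA share on 3 of 6 arrays. Of the 350 spots of 10 E1A probes, which the array marks as controls, 41.7% to 50.6% were well above background in scan set 1 and 85.1% to 91.1% in scan set 2. The lincRNA share lay above the E1A share by 4.06 to 12.9 points on every array of scan set 1 and below it on every array of scan set 2, with differences of -25.6 to -10.6 points.

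The level of the lincRNA probes stood further above the negatives in scan set 1 than in scan set 2. The median processed intensity of the lincRNA probes was 26.6, 38.5 and 43.3 units on room air replicates 1, 2 and 3, and 29.4 on ethanol replicate 4, against 15.7, 13.6, 16.8 and 12.3 for the negatives of the same arrays. The lincRNA medians of scan set 2 were 87.6 and 65.3 on room air replicates 5 and 9, and 78.1, 69.6, 60.05 and 66.2 on ethanol replicates 6, 7, 8 and 10, beside 70.8, 50.3, 72.8, 68.7, 52.3 and 54.8 for the negatives in the same order. The lincRNA median thus exceeded that of the negatives by 0.76 to 1.505 on the log2 scale in scan set 1 and by 0.018 to 0.38 in scan set 2, with no overlap. The difference between the sets was -1.01 (exact permutation p 0.00476, the smallest that 210 splits allow), again without account of the exposure group. Processed intensity and the share of flagged probes were thus higher in scan set 2, while the excess over the negatives was lower there.

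Against the E1A spots the order also turned between the sets. The lincRNA median minus the E1A median was 0.13, 0.51 and 0.72 on room air replicates 1, 2 and 3 and 0.036 on ethanol replicate 4, on the log2 scale. It was -0.24 and -0.33 on room air replicates 5 and 9, and -0.55, -0.31, -0.41 and -0.47 on ethanol replicates 6, 7, 8 and 10. Every array of scan set 1 was above 0 and every array of scan set 2 below 0.

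A stricter count took the lincRNA probes that read above the 95th percentile of the 15 negatives on the same array. Those were 37.8%, 46.8% and 48.5% on room air replicates 1, 2 and 3 and 37.5% on ethanol replicate 4. On the arrays of scan set 2 they were 33.9% and 28.2% on room air replicates 5 and 9, and 23.9%, 27.6%, 28.3% and 25.9% on ethanol replicates 6, 7, 8 and 10. By this measure every array of scan set 1 had a larger share than every array of scan set 2, the reverse of the order that the flag gave. What lies behind the difference between the scan sets was not tested.

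Each probe kept a similar place on arrays of one scan set and a less similar one across sets. Over the 714 probes the log2 levels of 2 arrays correlated with a mean r of 0.969 in scan set 1 (6 pairs of arrays) and 0.966 in scan set 2 (15 pairs), against 0.888 for the 24 pairs across the sets. Over all noncontrol probes the values were 0.979, 0.980 and 0.921. These correlations are across probes that share an array, so they are a description and not a test.

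The members split into 4 classes by these measures. On all 10 arrays 283 probes (39.6%) were well above background, 101 (14.1%) were so on none, 111 on 1 to 4 arrays and 219 on 5 to 9. Over all noncontrol probes 56.3% were well above background on all 10 arrays and 8.68% on none. Of the 283, 144 also read above the 95th percentile of the negatives on every array, which is 20.2% of the lincRNA probes, beside 33.1% of all probes. These 144 are the members with the firmest signal here, and 128 of them are mouselincRNA and 16 MM9LINCRNAEXON probes. A further 47 members were well above background on all 6 arrays of scan set 2 and on 0 of 4 in scan set 1, which is 6.58% of the members beside 4.65% of all probes and 6.32% of the human lincRNA probes. The reverse pattern had 1 member (0.14%, beside 0.0789% of all probes). No member was well above background on all arrays of one group and none of the other.

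Compared with other probe families on the same arrays, the mouse lincRNA probes read close to the human lincRNA probes and below the main long noncoding family. The 1092 probes named humanlincRNA were designed by name for another species. The mouse lincRNA median exceeded theirs by 0.15 ± 0.083 (SD, n = 10 arrays) on the log2 scale, was higher on 10 of 10 arrays and ranged from 0.030 to 0.30. The share well above background was 4.05 ± 0.994 percentage points higher (SD, n = 10), again on 10 of 10 arrays. The level gap averaged 0.23 in scan set 1 and 0.10 in scan set 2. Against the 27812 probes whose name starts with ASMM10LNC, the mouse lincRNA median was lower on 10 of 10 arrays, by -0.90 ± 0.13 (SD, n = 10), and the share well above background was lower by -14.5 ± 3.09 points (SD, n = 10). Two-sided exact sign-flip permutation tests over the 10 arrays gave 0.00195 for each of these 4 differences, the smallest that sign flips of 10 arrays allow, and 0.00195 after Benjamini-Hochberg adjustment over 6 tests. The medians are over different probes, whose binding was not calibrated, so they describe signal and not RNA amount. The tests bear on whether a gap recurs over arrays, which a fixed difference between probes would also give, and not on a difference between the families of RNA.

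The medians of the 2 name families of mouse lincRNA probes also lay apart on every array. The mouselincRNA median was lower than the MM9LINCRNAEXON median on 10 of 10 arrays, by -0.35 ± 0.12 (SD, n = 10) on the log2 scale. The share well above background was lower by -9.22 ± 2.11 points (SD, n = 10). The exact sign-flip p of 0.00195 for each again bears on the recurrence over arrays alone. Among mouselincRNA probes 14.9% were well above background on no array, and among MM9LINCRNAEXON probes 8.00%. The shares of probes above the 95th percentile of the negatives on all 10 arrays lay closer together, at 20.0% and 21.3%.

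The 317 loci with a probe on each strand show how often a locus was read on 1 strand or on both. On 50 of them (15.8%) both strands were well above background on all 10 arrays, on 40 (12.6%) 1 strand was so on all 10 arrays and the other on none, and on 4 neither strand was on any array. Of the 40, 16 had the plus probe and 24 the minus probe above background. By the milder flag for a signal that is positive and significant over background, both strands passed on all 10 arrays at 134 loci and 1 strand alone at 7, so these counts depend on the flag. By the stricter measure, 16 loci had both strands above the 95th percentile of the negatives on every array, and 54 had 1 strand so on every array and the other on none. Those 54 divide into 28 with the plus probe and 26 with the minus probe above the negatives. At 67 loci neither strand passed the 95th percentile of the negatives on any array.

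On a single array both strands were well above background at 77, 83 and 123 loci on room air replicates 1, 2 and 3 and at 70 on ethanol replicate 4. It was 195 and 157 on room air replicates 5 and 9, and 175, 171, 155 and 123 on ethanol replicates 6, 7, 8 and 10. The number of loci with both strands flagged therefore also followed the scan set, with 123 the highest count of set 1 and the lowest of set 2. Across the 317 loci the mean levels of the plus and the minus probe correlated with r = 0.0435, a description over loci that share the same arrays.

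The lincRNA probes with the highest mean level varied in the signal of their opposite-strand probe. Levels of single probes are given from here on as log2 processed intensity minus the 75th percentile of the array over noncontrol spots, so 0 marks that percentile. MM9LINCRNAEXON10664+_P1V4 read 8.44, 8.57, 8.14, 7.95 and 8.48 on room air replicates 1, 2, 3, 5 and 9, and 8.53, 8.36, 8.25, 8.54 and 8.59 on ethanol replicates 4, 6, 7, 8 and 10. The groups overlapped, and the whole range ran from 7.95 to 8.59. The ethanol minus room air difference of MM9LINCRNAEXON10664+_P1V4 was 0.19 (SE 0.17). Its minus-strand partner was also above the 95th percentile of the negatives on 10 of 10 arrays and differed by 0.58 (SE 0.24).

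mouselincRNA1606-_P1V4 read 7.76, 8.00, 7.25, 8.61 and 8.74 in room air and 8.45, 8.71, 8.28, 8.76 and 8.84 after ethanol, in the same order of replicates. Room air replicates 1, 2 and 3, all of scan set 1, were the lowest 3 of the 10 arrays. The plus probe of this locus was well above background on 9 arrays and above the 95th percentile of the negatives on 5. mouselincRNA0513+_P1V4 read 6.89, 7.09, 6.32, 7.38 and 7.74 in room air and 7.84, 7.60, 7.22, 7.33 and 7.72 after ethanol. Ethanol replicate 4 was the highest array and stood 1.07 above the room air mean of its scan set, whereas in scan set 2 the groups of mouselincRNA0513+_P1V4 differed by -0.091. Its minus-strand partner was above the 95th percentile of the negatives on 1 array. The differences of mouselincRNA1606-_P1V4 and mouselincRNA0513+_P1V4 with the scan set as a block were 0.27 (SE 0.23) and 0.33 (SE 0.26), and without ethanol replicate 4 they were -0.025 and -0.091.

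The other 3 probes of high level were MM9LINCRNAEXON10490+_P1V4, MM9LINCRNAEXON11711+_P1V4 and mouselincRNA1437+_P1V4, with mean levels of 7.25, 6.995 and 6.96. Their ethanol minus room air differences were 0.20 (SE 0.22), 0.28 (SE 0.24) and 0.25 (SE 0.21). Without ethanol replicate 4 they were 0.0048, 0.074 and 0.11. For mouselincRNA1437+_P1V4 the minus-strand probe was above the 95th percentile of the negatives on 10 arrays too, and for MM9LINCRNAEXON11711+_P1V4 on 4. Room air and ethanol arrays overlapped for all 3 probes. The smallest adjusted p among the 6 probes of high level was 0.718 in limma.

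At the other end, mouselincRNA0786-_P1V4 and mouselincRNA1218+_P1V4 were well above background on 0 arrays and read between -6.26 and -4.72 on every array. Both lay within 0.1 log2 unit of the lowest signal of the array on all 10 arrays, which ran from -6.31 to -4.77, so their order has no meaning. Between 15 and 166 of the lincRNA probes lay within 0.1 of that lowest signal on an array. The plus probe of the mouselincRNA0786 locus was well above background on 10 arrays, and the minus probe of the mouselincRNA1218 locus on 7.

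Between the scan sets most lincRNA probes differed. With the group as a term, 491 of 714 passed an adjusted p under 0.05 in limma, 397 higher and 94 lower in scan set 2, beside 71.1% of all probes (56.2% higher and 14.9% lower). The median difference was 0.86 for the lincRNA probes and 0.76 for all probes, so most of it is shared with the array as a whole. The direction depended on the scaling. Median scaling gave 198 higher and 231 lower members, beside 14625 and 21171 of all 60823 probes. Quantile normalization gave 157 higher and 206 lower, beside 15138 and 15017. With the percentile taken over probes well above background on all arrays there were 532 higher and 63 lower, beside 44944 and 5930. Over all probes the median difference under these 3 scalings was -0.14, 0.020 and 1.22. Without 1 array the count of members that passed ran from 411 to 491, beside 36085 to 43411 of all probes. Among members well above background on all 10 arrays the median difference between the sets was 0.16, and among those well above background on 1 to 9 arrays it was 1.67.

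The members with the most extreme scan set differences kept their direction under all 3 of these scalings. mouselincRNA0100-_P1V4 read -5.64, -5.55, -6.26 and -5.37 on replicates 1, 2, 3 and 4 and between -2.42 and -1.90 on the 6 arrays of scan set 2, a difference of 3.61 (SE 0.21). mouselincRNA1086+_P1V4 differed by 3.47 (SE 0.22). With a normexp background the values of mouselincRNA0100-_P1V4 and mouselincRNA1086+_P1V4 were 1.04 and 1.11. On scan set 1 neither was well above background on any array, so the sizes rest on dim readings, and both have a partner on the other strand that was above the 95th percentile of the negatives on 10 arrays. mouselincRNA0299-_P1V4 and mouselincRNA1284+_P1V4 were lower in scan set 2, by -3.15 (SE 0.18) and -3.04 (SE 0.17). mouselincRNA1284+_P1V4 read 5.23, 5.23, 4.83 and 5.04 on replicates 1, 2, 3 and 4 and between 1.54 and 2.30 in scan set 2. It was well above background on 10 of 10 arrays, and its minus-strand partner on 0.

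Ethanol vapor and room air were then compared within the scan sets, first for the array as a whole. The share of lincRNA probes well above background was 63.6% ± 12.6 (SD, n = 5) for room air arrays, and for ethanol arrays it was 65.5% ± 12.1 (SD, n = 5). With the scan set as a block the ethanol arrays were lower by -6.59 percentage points, with -8.54 in scan set 1 and -5.50 in scan set 2, and without the block they were 1.99 points higher. The share over all noncontrol probes, compared with the same block, was lower by -5.09 points. The exact permutation p (two-sided, 60 splits made within the scan sets) was 0.15 (0.35 adjusted over 7 measures). The ethanol array of scan set 1 was below all 3 room air arrays, and in scan set 2 the groups overlapped.

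The excess of the lincRNA median over the negatives was 0.86 ± 0.55 (SD, n = 5) for room air on the log2 scale, and 0.37 ± 0.51 (SD, n = 5) for ethanol. The blocked difference was -0.11 with an exact permutation p of 0.533 (0.622 adjusted), and the within-set values were 0.049 and -0.19. Every ethanol array of scan set 2 (0.018 to 0.27) was below both of its room air arrays (0.31 and 0.38), while in scan set 1 the ethanol array lay inside the room air range. With 1 array left out the exact p ran from 0.0444 (without room air replicate 1, -0.19) to 0.8 (without room air replicate 9, -0.059). Fewer splits remain with an array left out, so the smallest p that can be reached is larger and depends on the array. With the highest negative probe in place of the median, an alternative added after the data were seen, it was -0.36 with an exact p of 0.0167.

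The share of lincRNA probes above the 95th percentile of the negatives had the smallest p of the array measures. It was 39.0% ± 8.58 (SD, n = 5) for room air, beside 28.7% ± 5.22 (SD, n = 5) for ethanol, with a blocked difference of -5.41 points and an exact permutation p of 0.05 (0.233 adjusted). The difference was -6.85 points in scan set 1 and -4.60 in scan set 2, where ethanol replicate 8 (28.3%) lay above room air replicate 9 (28.2%). Among human lincRNA probes the share in scan set 1 was 34.3% to 47.0% in room air and 34.7% after ethanol. In scan set 2 it was 27.6% to 32.5% in room air and 23.4% to 27.8% after ethanol. Among ASMM10LNC probes the share in scan set 1 was 54.8% to 64.9% in room air and 53.4% after ethanol. In scan set 2 it was 47.1% to 53.7% and 41.1% to 46.1%. The groups were not tested on this share in these other families. With 1 array left out the exact p for the mouse lincRNA share ran from 0.0444 (without room air replicate 1) to 0.25 (without room air replicate 5). The excess over the E1A spots differed by -0.25 with an exact p of 0.0667 (0.233 adjusted). With 1 array left out its exact p ran from 0.0444 (without room air replicate 1, -0.29) to 0.2 (without ethanol replicate 4, -0.15, and without room air replicate 5, -0.26). Both ranges of p also reflect the fewer splits that remain, which differ with the array left out.

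Relative to all noncontrol probes the lincRNA median was at -0.81 ± 0.13 (SD, n = 5) for room air, beside -0.75 ± 0.13 (SD, n = 5) for ethanol. The blocked difference was -0.041 (exact permutation p 0.317), and the sign turned with a normexp background correction (0.013) and without the block (0.061). The gap to the human lincRNA probes differed between groups by 0.012 (exact permutation p 0.783) and that to the ASMM10LNC probes by -0.041 (exact permutation p 0.283). None of the 7 array measures passed 0.05 after adjustment. The smallest exact permutation p that splits within the scan sets allow is 0.0167. A measure that reached it alone would still not have passed after adjustment over 7 measures. The adjusted values therefore cannot decide whether a single measure differed between the groups.

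Probe by probe, no lincRNA probe passed the adjusted threshold between ethanol vapor and room air. In limma with the scan set as a block, fitted over all 60823 probes, 0 of 714 lincRNA probes and 0% of all probes had an adjusted p under 0.05, and the smallest adjusted p of a member was 0.611. An unadjusted p under 0.05 was found for 63 members (8.82%), beside 7.74% of all probes. Of these 34 were higher and 29 lower after ethanol, which is 4.76% and 4.06% of the members beside 4.06% and 3.68% of all probes. The share among the members is near that of the whole array. Median scaling gave 24 higher and 38 lower members, beside 1684 and 3019 of all 60823 probes. With the percentile over probes well above background on all arrays there were 61 higher and 14 lower members, beside 4568 and 1063 of all probes. The count of 63 was 31 without ethanol replicate 4, 41 without room air replicate 5 and 39 without ethanol replicate 10. Over all 60823 probes the counts were then 2562, 3234 and 3308. Members numbered 93 without room air replicate 1 and 94 without ethanol replicate 7, beside 6229 and 7478 of all probes.

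Over the 714 probes the median difference was 0.057, beside 0.050 over all probes, and 409 members (57.3%, beside 57.5% of all probes) were higher and 305 lower. The quartiles of the members were -0.14 and 0.30. After median scaling the median difference was -0.013, with 344 higher and 370 lower. The 95% interval of the difference lay within a 2-fold change either way for 503 members (70.4%) and for 79.8% of all probes. A difference of 2-fold or more was estimated for 5 members (0.7%), beside 0.893% of all probes. Those 5 are mouselincRNA1311+_P1V4, MM9LINCRNAEXON10627+_P1V4 and mouselincRNA0136+_P1V4 with higher and mouselincRNA0188+_P1V4 and mouselincRNA0484+_P1V4 with lower values after ethanol. mouselincRNA0188+_P1V4, at -1.16 (SE 0.42), falls outside the rule for named probes and was chosen after its values were seen.

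The balance of the differences followed the brightness of the probes. Of the 101 members well above background on no array 86 were higher after ethanol (85.1%), with a median of 0.38, beside 80.0% of all such probes of the array. The lowest signal of an array, on the same scale, was 0.45 higher in ethanol arrays with the scan set as a block. Among the 144 members above the 95th percentile of the negatives on every array the median was -0.037, with 60 higher and 84 lower. Of those 144, 17 were lower (11.8%, beside 6.39% of all such probes) and 3 higher (2.08%, beside 2.14%) at an unadjusted p under 0.05. The 17 were 4 without ethanol replicate 4, 6 without room air replicate 5, 7 without room air replicate 9 and 8 without ethanol replicate 10. Over all 60823 probes the lower count was 2238 in the main fit, and 769, 1449, 1739 and 1441 without these arrays. The 17 became 0 without the scan set block, 8 with the percentile over the probes well above background on 10 arrays, and 11 after quantile normalization. Over all probes these settings gave 206, 1063 and 2612 lower. The 17 became 21 with median scaling or a normexp background. They became 22 when only probes well above background on all arrays were fitted, and 24 with a trend on the mean level. Over all probes fitted, median scaling gave 3019 lower and a normexp background 2454. The filter gave 2208 of 34272 and the trend 2836. Probes of the whole array as bright as the 144 were counted in the main fit alone.

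Among members with a higher level after ethanol, mouselincRNA0331-_P1V4 had the smallest p. In scan set 1 it read -3.26, -3.34 and -3.08 on room air replicates 1, 2 and 3 and -2.44 on ethanol replicate 4. Scan set 2 read -2.78 and -2.64 on room air replicates 5 and 9 and -1.74, -2.30, -1.55 and -2.08 on ethanol replicates 6, 7, 8 and 10. Every ethanol array was above every room air array. The blocked difference of mouselincRNA0331-_P1V4 was 0.79 (SE 0.18, 95% interval 0.39 to 1.19), or 1.73-fold, with an adjusted p of 0.611 in limma. It was 0.79 in scan set 1 and 0.80 in scan set 2, and with a normexp background it was 0.41. It was well above background on 3 room air arrays and all 5 ethanol arrays, and above the 95th percentile of the negatives on 0 arrays. Its plus-strand partner, above that percentile on 10 arrays, differed by 0.19 (SE 0.19).

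mouselincRNA1620+_P1V4 read -2.10, -2.18, -2.17, -2.26 and -1.99 on room air replicates 1, 2, 3, 5 and 9, and -1.68, -1.41, -1.58, -1.64 and -1.77 on ethanol replicates 4, 6, 7, 8 and 10. The groups did not overlap, in either scan set or over all arrays. Its difference was 0.51 (SE 0.14), or 1.42-fold, with an adjusted p of 0.611 in limma, and 0.29 with a normexp background. The probe was well above background on 10 of 10 arrays. It exceeded the 95th percentile of the negatives on 4 arrays, and its minus-strand partner was well above background on 2.

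mouselincRNA1311+_P1V4 had the largest estimate of all members, 2.005 (SE 0.58), and the least even one. It read -5.14, -4.23 and -5.09 on room air replicates 1, 2 and 3 against -0.74 on ethanol replicate 4, a difference of 4.07. On scan set 2 it read -2.85 and -2.75 in room air and -2.57, -2.41, -1.99 and -0.87 after ethanol, a difference of 0.84. Without ethanol replicate 4 the blocked value of mouselincRNA1311+_P1V4 was 0.84, and with a normexp background 0.82. Only 2 room air arrays and all 5 ethanol arrays had it well above background, so its room air level is mostly a dim reading and its size is uncertain. Its minus-strand partner differed the other way, by -0.43 (SE 0.23).

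The remaining 3 members with higher values were dim or less separated. MM9LINCRNAEXON10627+_P1V4, at 1.12 (SE 0.35), had 0 room air arrays and 1 ethanol array with a signal well above background. mouselincRNA0136+_P1V4, at 1.03 (SE 0.32), was so on 0 of 10, so neither of these 2 differences is read as a fold. With a normexp background MM9LINCRNAEXON10627+_P1V4 was at 0.32, mouselincRNA0136+_P1V4 at 0.31 and mouselincRNA0336-_P1V4 at 0.47. mouselincRNA0336-_P1V4, at 0.70 (SE 0.23), was well above background on 10 arrays and read -2.32, -2.69, -2.80, -1.99 and -1.13 in room air and -1.55, -0.94, -1.36, -0.75 and -1.14 after ethanol. Its groups overlapped in scan set 2, since room air replicate 9 lay above ethanol replicates 7 and 10.

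Of the 6 named members with lower values after ethanol, 5 were well above background on 10 arrays, beside 2 of the 6 with higher values. mouselincRNA0772-_P1V4 read 5.02, 4.26 and 5.38 on room air replicates 1, 2 and 3 and 4.11 on ethanol replicate 4. Scan set 2 read 5.86 and 5.61 on room air replicates 5 and 9 and 5.17, 5.31, 5.15 and 4.77 on ethanol replicates 6, 7, 8 and 10. Within each set every ethanol array was below every room air array, and across the sets the groups overlapped. Its blocked difference was -0.69 (SE 0.23, 95% interval -1.19 to -0.18), or 0.621-fold, with an adjusted p of 0.611 in limma. Without the block it was -0.32. The plus-strand partner of mouselincRNA0772-_P1V4 differed by 0.091 (SE 0.17).

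MM9LINCRNAEXON11060-_P1V4 read 0.55, 0.97 and 1.05 in room air and 0.08 after ethanol in scan set 1, and 1.42 and 1.23 against 0.67, 1.02, 1.05 and 0.53 in scan set 2. mouselincRNA0208+_P1V4 read -0.63, -0.51 and 0.06 against -1.01 in scan set 1, and 1.03 and 0.81 against 0.33, 0.60, 0.30 and -0.07 in scan set 2. mouselincRNA1244-_P1V4 read 0.37, -0.35 and 1.18 against -0.73, and 2.17 and 1.95 against 1.35, 1.66, 1.37 and 0.89. For all 3 probes the ethanol arrays were below the room air arrays of their set, and all 3 exceeded the 95th percentile of the negatives on 10 arrays. The blocked differences of MM9LINCRNAEXON11060-_P1V4, mouselincRNA0208+_P1V4 and mouselincRNA1244-_P1V4 were -0.60 (SE 0.18), -0.64 (SE 0.20) and -0.88 (SE 0.29). Without the block they were -0.37, -0.12 and -0.15. Replicate 10 was the lowest of the 4 ethanol arrays of scan set 2 for each of these 3 probes and for mouselincRNA0772-_P1V4.

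mouselincRNA1117+_P1V4 and mouselincRNA0484+_P1V4 complete the 6 with lower values. mouselincRNA1117+_P1V4 read -1.58, -1.76 and -1.18 in room air and -2.18 after ethanol in scan set 1, and -0.36 and -0.50 against -0.998, -0.76, -0.86 and -1.16 in scan set 2. Its difference was -0.57 (SE 0.17), beside -0.12 without the block and -0.32 with a normexp background, and the probe was above the 95th percentile of the negatives on 8 arrays. mouselincRNA0484+_P1V4, at -1.04 (SE 0.37), -0.38 without the block and -0.39 with a normexp background, was well above background on 4 room air and 3 ethanol arrays, and its minus-strand partner, above the 95th percentile of the negatives on 10 arrays, differed by -0.15 (SE 0.15).

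Separation of the groups within both scan sets was about as common among the lincRNA probes as on the array. In 15 of the 710 members measured on all arrays (2.11%, beside 2.89% of all probes) every ethanol array was above every room air array of its set, in both sets. In 22 (3.10%, beside 3.36%) every ethanol array was below. Over all 10 arrays 5 members (0.704%, beside 0.538%) had every ethanol array above every room air array, and 0 members (beside 0.117%) had every one below. For 4 members 1 array was left out because its spot was marked as non-uniform: replicate 5 for mouselincRNA0466-_P1V4, replicate 4 for mouselincRNA0733-_P1V4 and mouselincRNA0814+_P1V4, and replicate 10 for mouselincRNA1609-_P1V4.

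The ethanol minus room air differences of the 2 strands of a locus showed little relation to each other. No probe of either strand passed the adjusted threshold, so no strand was shown to differ between the groups. Of the 317 loci with both strands, the differences of the plus and the minus probe had the same sign at 164 (51.7%), and they correlated with r = -0.0682 across loci, as a description. At 54 loci (17.0%) at least 1 strand had an unadjusted p under 0.05, at 1 both did, and there the signs were opposite. Among single probes 8.82% of the members had such a p, beside 7.74% of all probes. The same counts were not made for pairs of other probes, so they are not read as a trait of these loci. The locus with both, mouselincRNA0522, was chosen after its values were seen. mouselincRNA0522-_P1V4 read 7.04, 7.12, 6.65, 6.23 and 6.79 in room air and 7.90, 6.95, 6.54, 6.66 and 7.19 after ethanol, a blocked difference of 0.55 (SE 0.22). mouselincRNA0522+_P1V4 read 2.27, 2.22, 2.71, 2.72 and 2.54 in room air and 2.15, 1.93, 2.35, 2.09 and 1.78 after ethanol, in the order of replicates 1, 2, 3, 5 and 9 and of 4, 6, 7, 8 and 10. Its blocked difference was -0.47 (SE 0.18), and within each scan set its ethanol arrays lay below its room air arrays.

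Probes differed in their spread between arrays. Among members well above background on all arrays, mouselincRNA0997+_P1V4 had the smallest residual SD, 0.066, and mouselincRNA1235-_P1V4 the largest, 0.862. mouselincRNA0997+_P1V4 read from 0.14 to 0.22 on the 6 arrays of scan set 2 and from -0.82 to -0.60 in scan set 1, and its groups differed by -0.059 (SE 0.13). mouselincRNA0185-_P1V4, with a residual SD of 0.0744, differed by -0.036 (SE 0.13). mouselincRNA1235-_P1V4 read 1.30, -1.59 and -0.10 on room air replicates 1, 2 and 3, and its groups differed by 0.56 (SE 0.49), or 0.082 without ethanol replicate 4. mouselincRNA1379-_P1V4, with a residual SD of 0.702, read 3.62 on ethanol replicate 4 against 1.69, 2.18 and 1.37 on the room air arrays of that set. Its groups differed by 0.97 (SE 0.41), or 0.46 without ethanol replicate 4.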

How the data were processed

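RNA of brain vesicles was measured on 10 arrays, 1 per sample. The deposited intensities are, per the file headers, output of the scanner program Agilent Feature Extraction, version 11.0.1.1. They are background-subtracted and detrended for each array separately. The flags for well above background are per spot and have other values than intensities (0 or 1), per the file headers. The value table that the authors deposited is on a log2 scale (lowest r with the log2 intensity of the same array 0.993, median 6.50 in every column). Its normalization is not stated, and it served as an alternative. Its results lay close to those after quantile normalization, so these 2 alternatives are not separate evidence. Between the scan sets 361 members passed in it, beside 29979 of 60641 probes. After quantile normalization 363 members passed, beside 30155 of 60823.

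Non-uniform spots were dropped, the 75th percentile of an array was subtracted from its log2 intensities, and spots of a probe were averaged. No signal filter was applied, so all 714 lincRNA probes were tested. A probe with several spots counted as above background where at least 0.5 of them were. The comparison used limma (version 3.58.1, R version 4.3.3; two-sided tests after lmFit and eBayes), with the scan set as a fixed block, Benjamini-Hochberg adjustment over all 60823 noncontrol probes and a threshold of 0.05. Single values per array were compared by exact permutation. Named probes were taken by a rule: the 6 highest mean levels among probes above background on all arrays, the 6 smallest p in each direction, the 2 largest scan set differences in each direction, the 2 lowest levels among probes above background on none, and the 2 largest and 2 smallest residual SDs among those above background on all. The members, lists and the scan set block were chosen with earlier results of these data known. The comparison of strands and the tests of array measures between scan sets were added after the data were seen. Fits and tests were checked on simulated data. The alternatives were other scalings, background, filters, scan set terms, the authors' table and each array left out. The planned normexp alternative used the median spot signal (offset 50), which the scanner files hold, in place of the mean spot signal that was planned. Precision is limited by the number of arrays.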

Additional observations from a re-analysis of the deposited data

Results flagged for a closer look

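Ethanol replicate 4, which has no other ethanol array beside it in scan set 1, stood apart from the other 4 ethanol arrays for 9 of the 72 sets of 5 values examined. No other array did so. Chance marks about 1 group in 20, and the groups share the same arrays, so that share is no chance level here. Its distance from the closest array, as a part of the full range, was 0.795 for the lincRNA level over the negatives, where this array was highest at 1.26 beside 0.27. It was 0.833 for the level over all probes and 0.801 for the level minus the ASMM10LNC probes, where it was lowest. Among single probes the gap was 0.719 for mouselincRNA1117+_P1V4, 0.856 for mouselincRNA0100-_P1V4, 0.8 for mouselincRNA1086+_P1V4 and 0.929 for mouselincRNA0997+_P1V4, with this array lowest. It was 0.848 for mouselincRNA0299-_P1V4 and 0.871 for mouselincRNA1284+_P1V4, with this array highest. The 3 room air arrays of scan set 1 differed from scan set 2 in the same direction for each of these 9. mouselincRNA0100-_P1V4, mouselincRNA1086+_P1V4, mouselincRNA0299-_P1V4 and mouselincRNA1284+_P1V4 were named for the largest scan set differences, and mouselincRNA0997+_P1V4 for its small residual SD. A gap at the only ethanol array of scan set 1 was thus built into that choice. The count of 9 is therefore no measure of how unusual this array is.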

How the results depend on the processing

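No paired analysis was possible because the groups share no replicate numbers. The count of lincRNA probes that passed between ethanol vapor and room air was 0 in every fit run. An unadjusted p under 0.05 was found for 63 of 714 members, beside 4706 of 60823 probes. Among probes well above background on all 10 arrays it was found for 37 of 283 members, beside 3760 of 34272 probes. With 1 array left out the count of members ran from 31 to 94, beside 2562 to 7478 of all probes. Without the scan set block the difference in the share well above background turned to 1.99 points and that of the level over all probes to 0.061, and with a normexp background the latter turned to 0.013. With the highest negative probe the level over the negatives differed by -0.36 (exact p 0.0167). With 1 array left out the difference ran from -9.47 to -4.48 points for the share well above background, -0.19 to -0.059 for the level over the negatives, -0.30 to -0.15 for the level over E1A, -7.18 to -4.20 points for the share above the negatives, and -0.052 to -0.017 for the level over all probes. The count between scan sets was 200 of 283 members among probes well above background on all 10 arrays, beside 24350 of 34272 probes. With 1 array left out it was 411 to 491 members, beside 36085 to 43411 of all probes. Of the ethanol differences printed for probes named by the rule, signs turned for MM9LINCRNAEXON10490+_P1V4 without the block (-0.0026), after quantile normalization (-0.040) and in the authors' table (-0.038), for MM9LINCRNAEXON10664+_P1V4 (-0.11 in both of the latter), and for mouselincRNA1606-_P1V4 (-0.043 and -0.042). They also turned for mouselincRNA0997+_P1V4 without the block (0.31), scaled on the probes detected everywhere (0.023) and with a normexp background (0.0033), and for mouselincRNA0185-_P1V4 in the latter 2 (0.045 and 0.034). Within scan set 2 alone mouselincRNA1606-_P1V4 was at -0.025 and mouselincRNA0513+_P1V4 at -0.091, and with 1 array left out they ran from -0.025 to 0.40 and from -0.091 to 0.56. The cause of these changes was not tested. Strand pairs with both strands on all arrays became 134, and pairs with 1 strand alone 7, with the milder flag. Signal over background limits what can be read from the 101 members well above background on no array.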
